A study of Drosophila melanogaster with 3 samples.

Results

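The 1643 regions described here are Salr-GFP ChIP-seq peaks inside introns of genes that span less than 50 kb. They were taken from the 6485 peaks of the list thresholded by IDR, a measure of how well replicates agree on the ranks of peaks, on the dm6 assembly of Drosophila melanogaster. A peak was kept where its summit lay over 1000 bp from every annotated transcription start site, in no exon and inside at least 1 gene, and where every gene covering it spanned less than 50 kb. Position alone chose them, and they made up 25.3% of the list (Wilson 95% interval 24.3 to 26.4%, counting error only).

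The chromatin came from whole prepupae of the strain salr-GFP, a stable transgenic line in which GFP is fused to the C terminus of salr, and was immunoprecipitated through GFP. Males and females were pooled, the age within the prepupal stage is recorded as unknown, and the chromatin was sonicated to 200 to 800 bp. The study holds 1 group, salr-GFP, with 3 biological replicates, and the deposited notes name 1 control alignment shared by all replicate lists. Chromatin of a whole animal mixes all of its tissues, so a peak does not show in which cells the protein was bound, and all values concern the tagged protein in this line.

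Salr is a zinc-finger transcription factor and the paralogue of Salm, and both belong to the Spalt family, which is known for roles in wing vein patterning, sensory organ development and tracheal development. Introns of fly genes often hold enhancers, short stretches of DNA bound by transcription factors that set when and where a gene is transcribed, and the first intron is a frequent host. An intronic enhancer can act on the gene around it or on a neighbour, so a host gene is named below as a location and not as a target.

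The 3 strongest of these regions on X, 2L, 3L, 3R and 4 are shown first, because they carry the highest signal values of the class on those arms. Each run covers 100 bp on each side of the summit, on the plus strand of Release 6 (dm6), and capitals mark the words AATATT and TTATTA, the second on either strand, which were those most enriched at summits among the motifs searched. They lie at chrX:4910320-4910520 in intron 2 of CG32772, chr2L:6612623-6612823 in intron 2 of CG11050 and chr3L:14759406-14759606 in intron 2 of Trl, which encodes GAGA factor. The windows of CG32772, CG11050 and Trl had GC contents of 38.8%, 32.8% and 25.9%. Only the Trl window of these 3 held either word, so they do not stand for the base composition of the class, which is given further on.
CG32772: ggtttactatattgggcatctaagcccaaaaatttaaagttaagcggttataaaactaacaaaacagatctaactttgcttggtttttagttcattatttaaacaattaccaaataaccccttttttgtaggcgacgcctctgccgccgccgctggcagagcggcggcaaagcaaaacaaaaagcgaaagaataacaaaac
CG11050: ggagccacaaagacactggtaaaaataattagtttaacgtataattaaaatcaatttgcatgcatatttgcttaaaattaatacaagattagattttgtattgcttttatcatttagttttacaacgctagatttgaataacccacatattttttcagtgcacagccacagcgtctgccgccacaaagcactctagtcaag
Trl: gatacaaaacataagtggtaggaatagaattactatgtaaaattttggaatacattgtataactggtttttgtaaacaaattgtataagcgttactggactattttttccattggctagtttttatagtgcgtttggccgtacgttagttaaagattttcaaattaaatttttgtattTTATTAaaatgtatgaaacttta

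The next runs are shown because they hold CACTGAGA, the word of 8 bases most enriched at the summits over the sequence around them. They are the strongest regions with that word on X, 2L, 3L, 3R and 4, with 1 for each of 5 genes, chosen after the word had been found, and capitals mark the word. Runs of ImpL2 (chr3L:4228282-4228482) and Cad86C (chr3R:10834988-10835188) are on the plus strand. Those of vn (chr3L:5834358-5834558), gukh (chr3R:18995814-18996014) and CG6959 (chr3R:11849752-11849952) are on the minus strand. All 5 lie in the first intron of the longest transcript of the gene. In 4 of the 5 windows the word lay 40.5 to 80.5 bp before the summit and was followed by GAAA.
ImpL2: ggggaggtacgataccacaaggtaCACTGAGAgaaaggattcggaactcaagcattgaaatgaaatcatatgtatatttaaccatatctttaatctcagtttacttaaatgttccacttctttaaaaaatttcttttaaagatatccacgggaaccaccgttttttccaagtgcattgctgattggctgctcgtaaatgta
Cad86C: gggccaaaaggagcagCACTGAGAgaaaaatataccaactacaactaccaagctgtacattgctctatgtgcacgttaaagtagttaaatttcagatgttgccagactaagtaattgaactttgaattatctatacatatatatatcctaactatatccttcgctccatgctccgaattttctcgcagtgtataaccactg
vn: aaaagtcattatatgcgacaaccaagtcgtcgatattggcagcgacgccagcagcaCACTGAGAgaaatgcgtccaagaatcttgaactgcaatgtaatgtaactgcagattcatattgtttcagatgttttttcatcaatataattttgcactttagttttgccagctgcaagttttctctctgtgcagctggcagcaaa
gukh: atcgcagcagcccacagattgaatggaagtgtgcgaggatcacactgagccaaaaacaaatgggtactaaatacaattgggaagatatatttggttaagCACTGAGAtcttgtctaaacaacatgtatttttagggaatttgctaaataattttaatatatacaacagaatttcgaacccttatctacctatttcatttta
CG6959: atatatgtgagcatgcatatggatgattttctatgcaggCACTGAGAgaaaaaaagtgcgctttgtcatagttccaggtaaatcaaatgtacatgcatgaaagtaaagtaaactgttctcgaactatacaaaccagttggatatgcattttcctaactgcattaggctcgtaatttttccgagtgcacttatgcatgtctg

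The signal value, which the authors deposited as a score whose scale is not stated, ran from 116 to 1984 over the 1643 regions, with a median of 193 and quartiles of 147 and 277. The median was 180 for peaks in introns of genes of 50 kb or more, 175 for peaks between genes, 216 for peaks within 1000 bp of a start site and 196 for all other peaks of the list together. The intronic peaks of genes under 50 kb were 4 of the 20 strongest peaks, 14 of the 100 strongest and 198 of the 1000 strongest. Each is a lower share than their 25.3% of the whole list. Peaks within 1000 bp of a start site were 13, 75 and 608 of these.

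Each of the 20 strongest had a peak with a summit within 100 bp among the 6485 best-ranked peaks of every replicate. The IDR list was made from these replicate lists, so such a match is not independent of the strength that chose the 20. The strongest, in CG32772, had a signal value of 1984 in the IDR list and of 942, 507 and 537 in replicates 1, 2 and 3, where it ranked 1, 9 and 1. The peak in CG11050 had 1748 in the IDR list and 769, 544 and 448 in the replicates, with ranks of 6, 8 and 6. The peak in Trl had 1621 in the IDR list and 681, 574 and 368 in the replicates, with ranks of 12, 5 and 15. All 3 thus stood among the 15 best-ranked peaks of every replicate.

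Next in signal value came CG12769 (1363), dnr1, an E3 ubiquitin ligase gene (1212), simj, which encodes the p66 subunit of the NuRD complex (1063), CG32486 (1049), comm3, a paralogue of the axon guidance gene commissureless (1037), CG9837 (1030.0) and JIL-1, the histone H3 serine kinase (988). They were followed by neur, the ubiquitin ligase that promotes endocytosis of Notch ligands (969), CG3726 (943), a site inside both Hyls1 and chif (937), the chromatin gene upSET (902) and Pits, whose product binds the repressor Ttk69 and Sin3A (868). A further simj peak (868), edl, an antagonist of the Ets factor Yan (860.4), the Polycomb group gene Psc (854), dpp, the BMP ligand gene (829.5), and the non-coding gene lncRNA:CR45668 (826) completed the 20. The second simj peak had the widest spread of ranks, 358, 155 and 155 in replicates 1, 2 and 3. In the dpp gene the peak lay 5279 bp from the nearest start site, in an intron of 26006 bp, and ranked 136, 128 and 157.

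**Figure D1:**
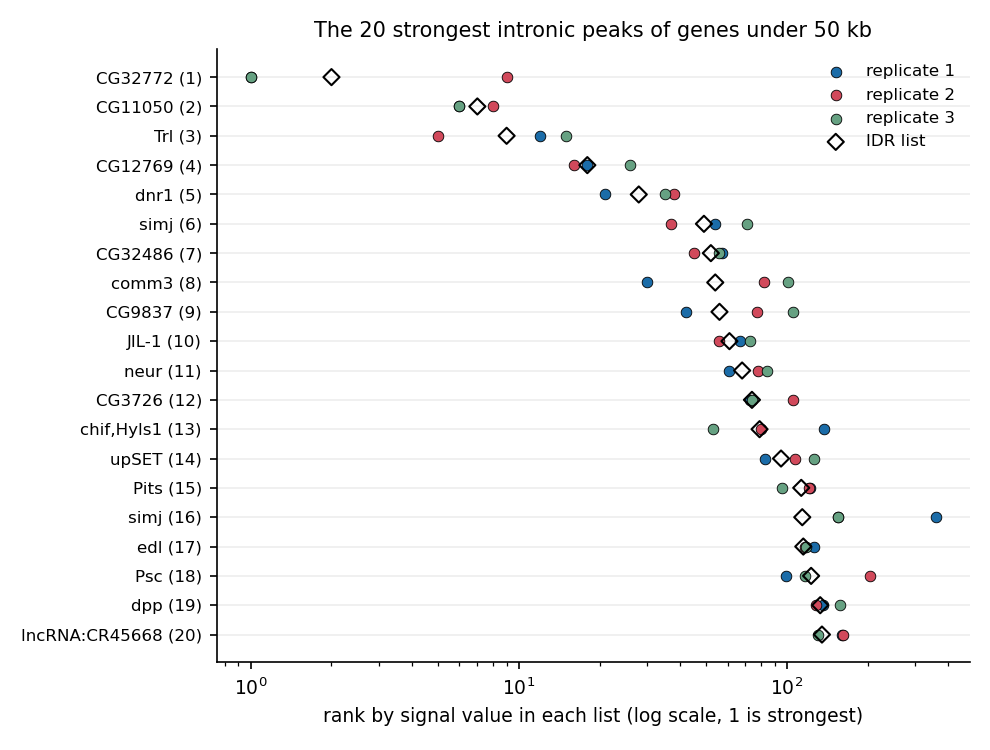
Rank of the 20 strongest intronic peaks of genes under 50 kb in the peak list of each replicate (filled points) and in the IDR list (open diamonds), on a log axis where 1 is the strongest. The peak in CG32772 ranked 1, 9 and 1, and the second simj peak ranked 358 in replicate 1 against 155 in the others.

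Across all regions, 917 of 1643 (55.8%) were matched in all 3 replicates, against a background of 55.2% of all peaks in the IDR list. A further 454 were matched in 2 replicates, 245 in 1 and 27 in none. The share matched in all 3 was 49.8% in introns of genes of 50 kb or more, 49.4% between genes and 59.3% near start sites. Within the class it followed the signal value, since 89.2% of the 548 strongest regions, 66.8% of the next 548 and 11.3% of the 547 weakest were matched in all 3.

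A mean of 79.2 ± 5.05% (SD, n = 3) of the regions was matched in a replicate, with 84.7%, 78.1% and 74.8% in replicates 1, 2 and 3. The share was 78.3 ± 4.68% for all other peaks of the list, and the difference of 0.856 ± 1.65 percentage points was smaller than its spread (exact sign-flip permutation test over the 3 within-replicate differences, two-sided p = 0.5). Against 76.1 ± 6.35% in introns of genes of 50 kb or more the regions were higher in 3 of 3 replicates, by 3.14 ± 2.42 points (exact p = 0.25). Against 75.04 ± 5.34% between genes they were higher in 3 of 3 replicates, by 4.16 ± 2.36 points (exact p = 0.25). Both of these differences changed sign among the 3242 strongest peaks of the IDR list, where they were -0.562 and -0.123 points. Compared within 5 equal classes of signal value they were 0.104 ± 2.04 and 0.547 ± 2.33 points, smaller than their spread. Against 80.5 ± 3.84% near start sites the regions were lower in 2 of 3 replicates, by a difference of -1.28 ± 1.65 points (exact p = 0.5). With the 3000 best-ranked peaks of each replicate that difference was -9.00 points, lower in 3 of 3 (exact p = 0.25, permutation test). With 3 replicates the smallest two-sided p of this test is 0.25, so no comparison here can pass a threshold of 0.05. Of 38 comparisons made in this way 31 gave that smallest value, which becomes 0.306 after Benjamini-Hochberg adjustment.

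The median rank of the matched replicate peak was 2954 ± 68.6 (SD, n = 3) for the regions. It was 3151 ± 129 for introns of genes of 50 kb or more, 3279 ± 150 between genes and 2307 ± 103 near start sites, where a lower rank means a stronger peak. The order was the same in 3 of 3 replicates (exact p = 0.25 for each difference from the regions, permutation test).

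Introns of genes under 50 kb held more peaks per base than introns of longer genes or the sequence between genes. Over 23.8 Mb that met the conditions on position there were 70.7, 64.8 and 65.8 best-ranked peaks per Mb in replicates 1, 2 and 3, a mean of 67.1 ± 3.17 (SD, n = 3). Introns of genes of 50 kb or more held 39.3 ± 1.31 per Mb over 24.6 Mb, and sequence between genes over 1000 bp from a start site held 29.0 ± 0.313 per Mb over 33.6 Mb. The differences of 27.8 ± 1.89 and 38.1 ± 3.26 peaks per Mb had the same direction in 3 of 3 replicates, and in each pair the replicate values did not overlap (exact p = 0.25 each, permutation test). Sequence within 1000 bp of a start site was denser, at 90.4 ± 3.27 per Mb, and exons were sparse, at 4.43 ± 0.234 per Mb.

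**Figure D2:**
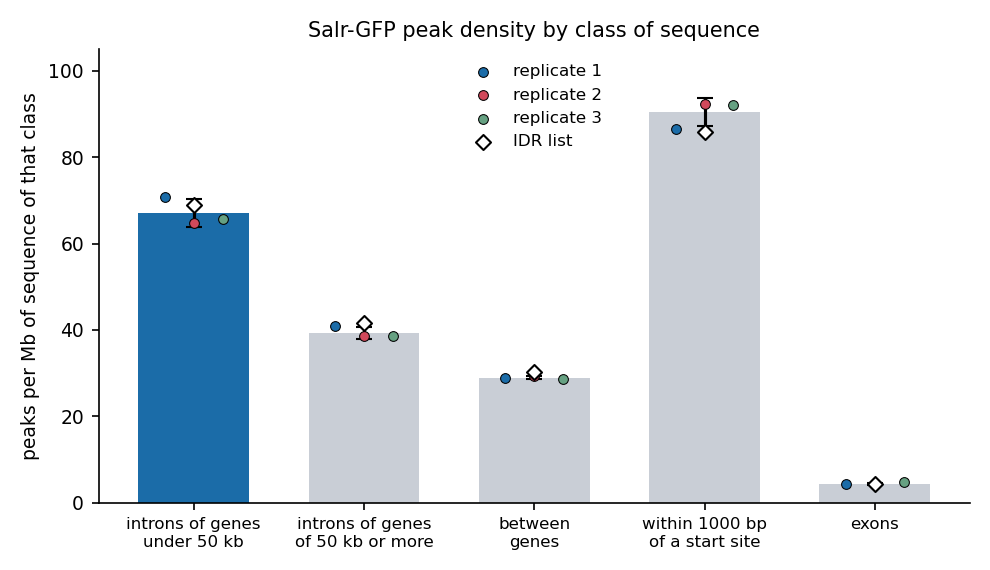
Best-ranked Salr-GFP peaks per Mb of sequence in each class (bars, mean of 3 replicates; error bars, SD; points, replicates; diamonds, IDR list). Introns of genes under 50 kb reached 67.1 per Mb, above introns of longer genes (39.3) and sequence between genes (29.0) and below sequence near start sites (90.4).

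Part of this difference moved with distance from start sites, and its cause was not tested. Of the sequence counted, 3.84 Mb in genes under 50 kb, 13.4 Mb in longer genes and 12.9 Mb between genes lay beyond 10 kb. With the distances weighted to those of the regions the densities were 67.1 ± 3.17 per Mb for genes under 50 kb, 52.5 ± 1.38 for genes of 50 kb or more and 35.9 ± 0.372 between genes, and the order held in 3 of 3 replicates. Between 1 and 2 kb from a start site the IDR list held 96.1 peaks per Mb in introns of genes under 50 kb, 72.0 in introns of longer genes and 54.1 between genes. Beyond 10 kb the same densities were 39.0, 28.3 and 12.4.

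Density did not change in 1 direction with the span of the gene. In the replicates it averaged 35.7 ± 4.31 peaks per Mb of intron in genes under 5 kb, 63.8 ± 6.68 from 5 to 10 kb, 76.6 ± 2.91 from 10 to 20 kb and 79.6 ± 3.91 from 20 to 30 kb (SD, n = 3 each). It averaged 59.2 ± 4.01 from 30 to 40 kb and 58.6 ± 3.08 from 40 to 50 kb. Just beyond the limit of 50 kb, genes of 50 to 100 kb held 56.4 ± 2.21 per Mb. Genes of 40 to 50 kb were denser in each replicate, with 61.3, 55.3 and 59.2 per Mb against 58.9, 54.6 and 55.7 in genes of 50 to 100 kb, although the ranges of the 2 spans overlapped. Genes over 100 kb held 24.3 ± 0.774 per Mb, below every other span in every replicate. The 67.1 ± 3.17 per Mb of all genes under 50 kb exceeded both of these ranges in 3 of 3 replicates.

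**Figure D3:**
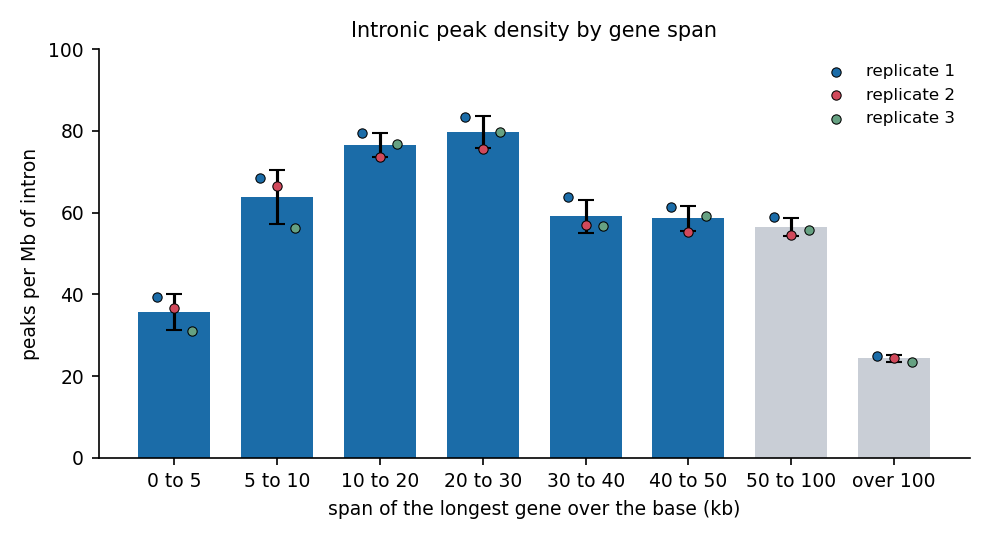
Best-ranked intronic Salr-GFP peaks per Mb by the span of the longest gene over the base (bars, mean of 3 replicates; error bars, SD; points, replicates; blue, genes under 50 kb; grey, longer genes). Density was highest, at 79.6 per Mb, in genes of 20 to 30 kb, and was 58.6 in genes of 40 to 50 kb and 56.4 in genes of 50 to 100 kb.

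By arm, the IDR list held 86.5 members of the class per eligible Mb on X, 76.6 on 3L, 67.0 on 3R, 65.96 on 2R and 58.2 on 2L. The small chromosome 4 held 4 regions in 0.504 Mb, or 7.94 per Mb.

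Of the 1643 summits 3 (0.183%) lay in annotated transposable elements, which covered 6.78% of the eligible sequence. The same contrast was seen in introns of genes of 50 kb or more, with 0.391% of summits against 8.36% of bases, and between genes, with 0.0981% against 11.4%. How reads in repeats were treated is not given in the sources used here. With the elements left out the densities were 71.8 per Mb in introns of genes under 50 kb, 42.7 in introns of longer genes and 32.7 between genes.

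Within their genes the regions lay towards the 5′ end. In the longest transcript of the host gene 914 regions (55.6%) lay in the first intron, 451 in the second, 160 in the third and 117 in a later one. In the replicates the share in the first intron was 55.9 ± 0.650% (SD, n = 3), against 38.8% of the eligible bases, higher in 3 of 3 replicates (exact p = 0.25, permutation test). With the bases weighted to the distances of the peaks from start sites the expected share was 40.9%. With each gene split into 4 equal parts, the part nearest the 5′ end held 35.7% of the regions and 23.8% of the eligible bases, while the part nearest the 3′ end held 6.94% of the regions and 15.3% of the bases.

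The host intron had a median length of 10678 bp and the host gene a median span of 23487 bp. The median distance to a start site was 3212 bp, with quartiles of 1780 and 6184 bp and a maximum of 26423 bp. The nearest start site belonged to a gene covering the region for 1208 regions (73.5%) and to another gene for 435. A single gene covered 1577 regions, 2 genes covered 59 and 3 genes covered 7.

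Peaks close to the limits of 1000 bp and 50 kb had signal values between 129 and 1123. Just inside the first limit lay peaks of Hyls1 (1001 bp from a start site, signal value 937), aop (1001 bp, 205) and Roc2 (1002 bp, 281). Just outside it lay peaks of numb (1000 bp, 167), simj (999 bp, 1123) and Psa (997 bp, 295). Just inside the span limit lay 2 peaks of NetA (49917 bp, 212 and 168) and 1 of Dyrk2 (49649 bp, 251), and just outside it 2 peaks of ab (50403 bp, 429 and 129) and 1 of ftz-f1 (50703 bp, 341).

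The regions lay in 751 genes, and 749 of the 4471 genes under 50 kb with enough eligible sequence to hold a window of 100 bp on each side of a summit, or 16.8%, held at least 1. Of the 749, 355 held 1 region, 160 held 2, 90 held 3 and 144 held 4 or more, and these 144 genes held 747 regions. Host genes had much more room, with a median of 9722 eligible bases against 1755 over all 4471 genes. The longest gene covering the region was protein-coding for 1610 regions and non-coding for 33.

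A count of summits is not a count of separate sites. Neighbouring summits were never closer than 199 bp, and 320 of the 424 regions with another IDR summit within 300 bp had it within 10 bp of a distance of 200 bp. Overlapping regions merged into 1443 intervals, 199 of them made of 2 or more. Counted once per interval, the replicate densities were 58.9 per Mb in introns of genes under 50 kb, 35.2 in introns of longer genes and 25.9 between genes.

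E2f1 and Mnt held the most regions, 12 each. E2f1, an activator of S-phase genes (chr3R:21620304-21660871, minus strand), held them in 10 merged intervals spread from 3746 to 32883 bp from its 5′ end, and the replicates had 10, 13 and 14 peaks there. The strongest had a signal value of 741 and 8 of the 12 were matched in all 3 replicates, against 55.2% of all peaks of the list. Mnt, a Max partner that opposes Myc (chrX:3671801-3701672, plus strand), held 11 merged intervals, with 14, 11 and 13 peaks in the replicates. Its strongest had a signal value of 788, and 11 of its 12 were matched in all 3 replicates.

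The Arf exchange factor gene siz followed with 11 regions in 8 merged intervals, all in its first intron of 33412 bp. Of these 11, which had a median signal value of 149, 4 were matched in all 3 replicates. The co-regulator gene tara held 10, all in the only intron of its longest transcript, with 12 peaks in each replicate, and tna, a SUMO ligase gene of the Zmiz family, held 10, all in the first intron. Raf, the kinase that acts below Ras, held 9 between 1061 and 11038 bp from its 5′ end in a gene of 48405 bp, and none farther along. The chromatin remodelling gene tou held 9 as well.

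A further 9 genes held 8 regions each. Those reported here were Egfr, the Ras pathway repressor aop (Yan), the Ras GTPase-activating gene raskol, the JNK pathway kinase gene msn, the Wingless co-receptor gene arr, the integrin gene mew, the co-chaperone gene Tpr2 and simj. In Egfr the 8 merged into 5 intervals, all in its first intron of 31587 bp, with 5, 7 and 7 peaks in the replicates and a highest signal value of 485. In aop the 8 stayed separate, all in the first intron, with 8, 8 and 5 peaks in the replicates and a highest signal value of 310.2. Tpr2 was the densest of these genes, with 8.80 summits per 10 kb of eligible sequence, but its 8 merged into 5 intervals. In raskol 2 of the 8 were matched in all 3 replicates, against 5 of 8 in simj and 55.2% of all peaks of the list. The median signal value was 170 in raskol and 379 in simj, and the share matched followed the signal value over the class.

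**Figure D4:**
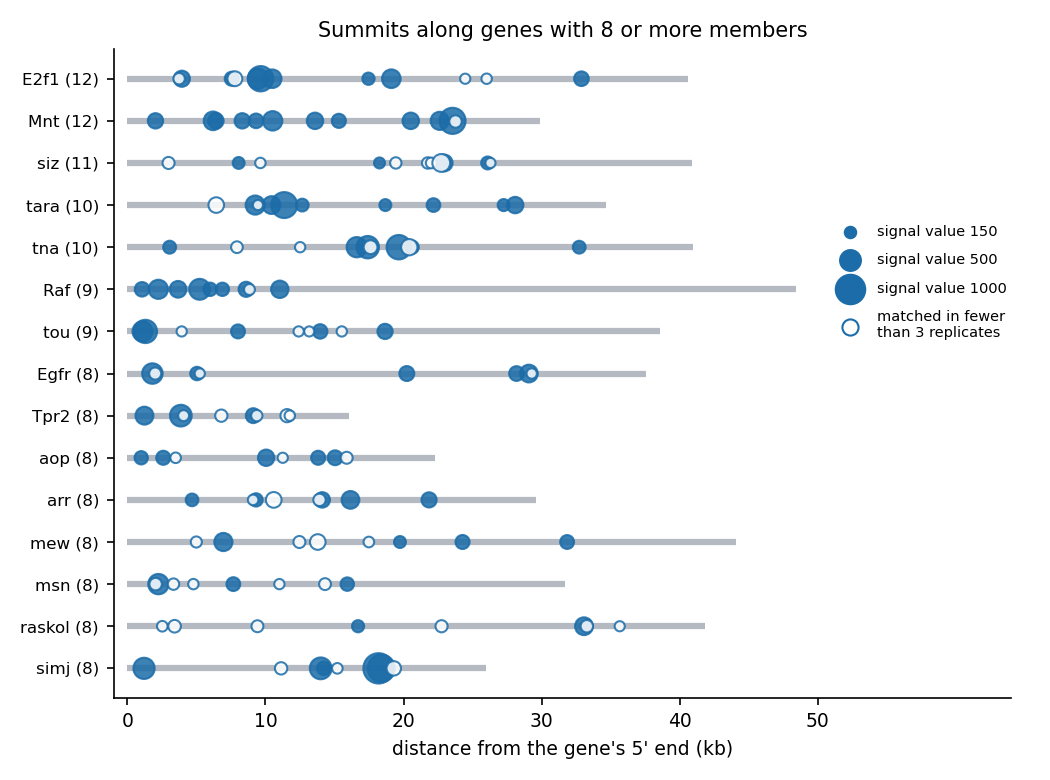
Summits along the genes named in the text that held 8 or more regions, as distance from the gene's 5′ end (grey bar, gene span; point area, signal value; filled, matched in all 3 replicates; open, matched in fewer). In Raf all 9 summits lay within 11038 bp of the 5′ end, while in E2f1 they reached 32883 bp.

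Host genes often had a peak at their promoter too. In the replicates 49.2 ± 1.21% (SD, n = 3) of the genes with an intronic region had a best-ranked peak within 1000 bp of a start site of their own, against 22.6 ± 1.90% of the other eligible genes, higher in 3 of 3 replicates (exact p = 0.25, permutation test). Compared within 5 equal classes of genes by eligible sequence the shares were 47.9% and 22.7%. This comparison was added after the data had been seen. A gene with more start sites has more room for such a peak, and the number of start sites was not matched. Neighbouring summits can also fall on both sides of the 1000 bp limit, as in simj, with summits 999 and 1205 bp from a start site.

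Gene lists were read against the same background of 16.8% of eligible genes with a region and 69.8 regions per eligible Mb. All 13 lists with more than 2 eligible genes had a share above 16.8%, but most lists also had more eligible sequence per gene than the median of 1755 bases, so the density is given beside each share. No test was made of a list.

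Among signalling pathways, the Dpp and activin list had a region in 9 of 13 eligible genes and 202 regions per Mb, with 218 ± 22.2 best-ranked peaks per Mb in the replicates (SD, n = 3). The strongest were in dpp (829.5), in wit, the type II BMP receptor gene (785), and in Dad, the inhibitory Smad gene (649). Of the 24 regions of the list Dad held 6. The genes dlp and sog, named after their counts had been seen, held 6 and 5. The EGFR and Ras list had a region in 6 of 13 genes and 211 regions per Mb, with 194.9 ± 8.12 in the replicates. Its strongest were in edl (860.4), in the ligand gene vn (513) and in Egfr (485), and Egfr and aop together held 16 of its 26 regions.

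The Hippo and growth list had a region in 7 of 16 genes and 180.0 per Mb. Its strongest were in kibra and ex, both upstream activators of Warts (673 and 426), and in the Forkhead gene foxo (355). The JAK-STAT and JNK list had a region in 4 of 15 genes and 156 per Mb, led by msn (478), the cytokine signalling suppressor Socs36E (199.9) and the JNK phosphatase gene puc (189). Of its 14 regions msn alone held 8. The Wnt and Hedgehog list had a region in 7 of 15 genes and 109 per Mb, led by the Wingless antagonist nkd (546), wg (371) and arr (364). The Notch list had a region in 7 of 14 genes and 96.0 per Mb, led by neur (969), N (438) and numb (257). That list also held Notum, an antagonist of Wingless, which had 3 of its 11 regions.

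Among regulators of prepupal development, the ecdysone and nuclear receptor list had a region in 9 of 12 genes, the highest share of any list, and 136 per Mb. This list also had the highest median of eligible bases per gene, 12704.5. Its strongest were in ImpL2, which encodes an insulin-binding protein (672), and in the ecdysone-responsive receptor genes Hr3 (474, 7 regions) and Eip78C (443, 6 regions). The strongest Hr3 region was matched in 1 replicate only, and all 7 regions also lie in CG12912, a gene nested within Hr3. The chromatin and corepressor list had a region in 8 of 19 genes and 175 per Mb, led by Trl (1621), Psc (854) and trx, the Trithorax methyltransferase gene (729). The cell death and autophagy list had a region in 2 of 8 genes and 182.4 per Mb, with 213, 152 and 122 best-ranked peaks per Mb in replicates 1, 2 and 3. Of its 6 regions, Atg1 held 5 (highest 414) and Diap1 1 (240.0).

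The muscle and mesoderm list was near the background, with 4 of 15 genes and 82.4 per Mb. Its hosts with the strongest regions were mbc (379), Mef2 (295, 6 regions) and the RNA-binding gene how (194).

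Wing and appendage patterning genes, the field in which Salr is best known, held few regions for their eligible sequence. A region lay in 7 of 23 genes (30.4%), above the 16.8% of all eligible genes, but the median gene of the list had 10970 eligible bases. The density was 29.9 per Mb, and the replicates gave 31.0 ± 5.08 best-ranked peaks per Mb (SD, n = 3), all below 69.8. The 4 listed genes of 50 kb or more and all peaks near start sites are outside these counts. The strongest were in bs, the SRF gene (273), nub (238) and salr itself (169). The salr region lay in intron 3, 5684 bp from a start site, and ranked 4198, 4610 and 3259 in the replicates. Among the 3242 strongest peaks of the IDR list, which held 810 of the 1643 regions, 2 of the 23 wing genes held a region. The share of all eligible genes at that cut is not given here. Neuronal differentiation genes had a lower density still, 24.6 per Mb, with a region in 3 of 14 genes (21.4%), insc (234), NetA (212) and robo2 (148). Of the cytoplasmic ribosomal protein genes 2 had eligible sequence and neither held a region.

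Base composition at the summits differed from that around them. In the replicates the windows around summits had a GC content of 35.2 ± 0.504% (SD, n = 3), against 40.8 ± 0.0878% in windows 1000 bp away, lower in 3 of 3 replicates (exact p = 0.25, permutation test). Over tiles of all eligible sequence it was 39.98%. In bins of 50 bp the GC content of the 1643 regions dipped to 32.7% at the summit, rose to 45.4% at 350 bp before and 250 bp after it, and returned to 40.3% and 39.5% at 800 bp on either side. Peaks in introns of genes of 50 kb or more and peaks near start sites were profiled in the same way, and their lowest bins were also at the summit, at 32.4% and 33.5%. GC content of the windows was 35.5 ± 0.692% in introns of genes of 50 kb or more and 35.3 ± 0.674% near start sites, and the regions differed from them by -0.323 and -0.0703 percentage points.

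Words rich in A and T were more frequent at summits than in the flanks. TTATTA, searched on both strands like all motifs, was in 33.1 ± 0.416% of windows against 22.3 ± 0.554% of flanks, and AATATT in 28.0 ± 1.55% against 18.4 ± 0.310% (SD, n = 3 replicates). These 2 words can overlap each other. AAAAAAAA was in 19.7 ± 0.855% against 14.3 ± 0.167% and the homeodomain core TAATTA in 18.2 ± 0.845% against 14.7 ± 0.518%. Each was higher in 3 of 3 replicates, with no overlap of the values (exact p = 0.25 each, permutation test). In tiles of eligible sequence the shares were 23.4% for TTATTA, 18.4% for AATATT, 13.2% for AAAAAAAA and 15.2% for TAATTA.

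Most motifs with G and C were less frequent at summits than in the flanks. The Mad and Medea word GCCGNCG was in 3.06 ± 0.128% of windows against 6.91 ± 0.393% of flanks, the Scalloped word GGAATG in 6.75 ± 0.186% against 9.88 ± 0.523%, and the Suppressor of Hairless word TGGGAA in 10.6 ± 0.269% against 13.8 ± 0.482%. The Ets core CCGGAA was in 2.70 ± 0.335% against 4.28 ± 0.114%, CACGTG in 1.25 ± 0.0579% against 2.65 ± 0.115% and CACACA in 15.5 ± 1.05% against 19.0 ± 0.108%. GAGAG, the GAGA factor word, did not differ by more than its spread, at 23.4 ± 0.839% against 24.0 ± 0.336% (exact p = 0.5, permutation test). CATATG and the Pangolin word CTTTGAT were more frequent at summits in 3 of 3 replicates, at 8.29 ± 0.407% against 7.33 ± 0.151% and 4.45 ± 0.372% against 4.03 ± 0.206%. The DREF and Grainyhead words, in only 4 and 6 of the 1643 regions of the IDR list, were less frequent in 3 of 3. So were the GATA, AP-1, STAT and CAGCTG motifs, but each of these 4 lost the common direction of the replicates under at least 1 other window or number of peaks. AP-1 lost it under 3 of them, and over the 1643 regions of the IDR list it was more frequent at summits, at 5.78% against 5.48% of flanks. CTTTGAT lost the common direction with the 3000 best-ranked peaks. The Zelda word and the nuclear receptor word AGGTCA had no common direction. The part of base composition in these motif shares was not tested.

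The share of peaks with a motif depended on the class of peak for some motifs more than for others, and these shares over the IDR list were not tested. AATATT was in 28.9% of the regions, 29.6% of peaks in longer introns, 31.7% of those between genes and 29.5% of those near start sites. TTATTA was in 33.4% of the regions, 30.5% of peaks in longer introns, 37.6% between genes and 34.2% near start sites. AAAAAAAA was in 19.4% of the regions, 25.4% of peaks in longer introns, 15.1% between genes and 19.7% near start sites. TATCGATA, the DREF word, was in 0.243% of the regions, only 4 of them, and in 0.391% of peaks in longer introns. It was in 0.294% of peaks between genes and 1.62% near start sites.

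With the regions split by signal value as above, TTATTA was in 39.1%, 31.6% and 29.6% of windows in the strongest, middle and weakest group. The shares of AATATT and TAATTA also fell from the strongest group to the weakest. AAAAAAAA went the other way, at 16.2%, 20.8% and 21.2% in the same order. GC content was 34.0%, 34.7% and 35.7%. The word GCCGNCG was in 1.64% of windows in the strongest group, 2.92% in the middle and 5.12% in the weakest.

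Of 1016 words of 8 bases found in at least 40 of the windows, CACTGAGA had the highest ratio to the flanks. It was in 68 windows (4.14%) against 0.517% of flank windows and 0.684% of tiles. In the replicates it was in 3.98%, 4.40% and 3.51% of windows, a mean of 3.96 ± 0.447% (SD, n = 3), against 0.522 ± 0.0250% of flanks. The replicates share most of these windows, the word was picked for this ratio, and no test was made of it. The word was in 5.68% of peaks in introns of genes of 50 kb or more and 6.38% of those between genes, both above the 4.14% of the regions, and in 2.25% of those near start sites, below it.

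The next words partly overlap it or each other. ACACTGAG was in 2.74% of windows against 0.396% of flanks, CACTGTGC in 4.56% against 0.822%, CTCAGTGC in 3.29% against 0.609% and ACTGAGAG in 2.56% against 0.487%. The first 4 words by ratio hold CACTG or its reverse complement CAGTG, while ACTGAGAG and the next in order, CTGAGAGA and ACTGTGCA, hold neither. TACACAGA, picked from the same words after their shares by class had been seen, was in 3.35% of the regions and 0.852% of their flanks. In the replicates it was in 2.56 ± 0.265% of windows against 0.877 ± 0.0880% of flanks (SD, n = 3). It was in 1.76% of peaks in introns of genes of 50 kb or more, 1.57% between genes and 1.44% near start sites. Words had to be in at least 40 windows of the regions, with no such limit in the other classes. The word was picked from these same shares, so the contrast is no evidence of a word particular to the regions.

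CACTGAGA lay on a preferred side of the summit. Of its 69 occurrences in the windows, 59 (85.5%) lay before the summit when the word was read 5′ to 3′ as written, so that its end pointed at the summit, and 10 lay after it. The median position of the middle of the word was -48.5 bp, with quartiles of -73.5 and -22.5 bp. The next 4 bases were GAAA in 32 occurrences and AAAA in 21. In introns of genes of 50 kb or more 49 of 59 occurrences read towards the summit, between genes 55 of 66 and near start sites 46 of 61.

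**Figure D5:**
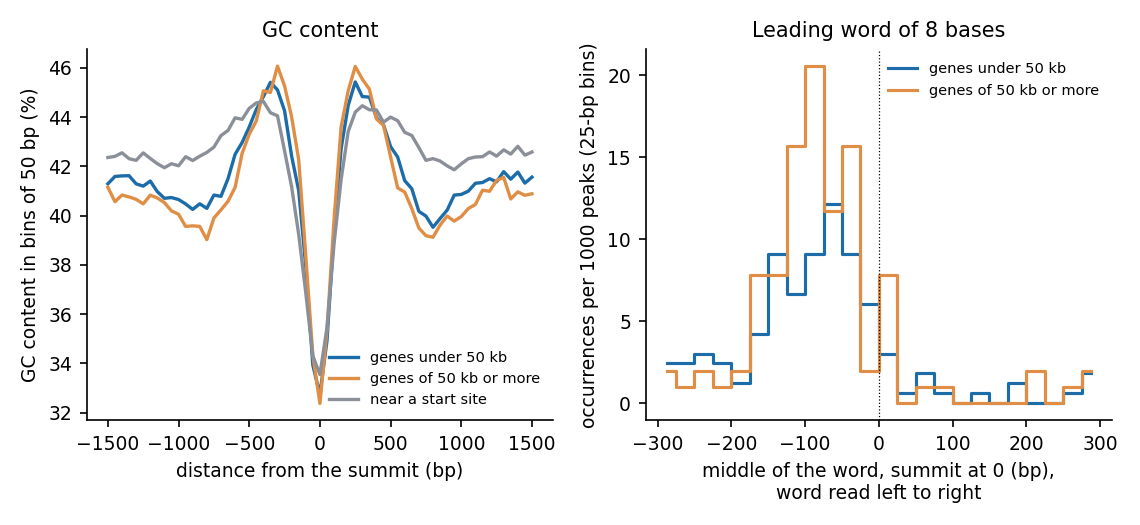
Left, GC content in bins of 50 bp by distance from the summit for intronic peaks of genes under 50 kb, of genes of 50 kb or more and for peaks near start sites, which all dip at the summit (32.7% in genes under 50 kb). Right, occurrences of CACTGAGA per 1000 peaks in bins of 25 bp, with the word read left to right, most of them before the summit (59 of 69 within the windows of genes under 50 kb).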

How the data were processed

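The data are 3 ChIP-seq peak lists, 1 per replicate, and 1 IDR list on dm6. Column 7 of each list holds the signal value, a score that was deposited with no note of its scale, and column 10 the summit offset, another value the authors deposited. Each replicate list held 30000 entries, peaks together with background for the IDR step, per the file names. The aligner and the peak caller, with their settings, are not named in the labels or notes. No read totals were used here, so depth is unknown. The lists on dm3, the pooled list and the notes files were not used for values.

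Genes and start sites came from Ensembl (BDGP 6.54, release 115, no transposable elements) and sequence from Release 6, read in Python 3.11.15 with NumPy 2.4.6, pandas 2.3.3, SciPy 1.17.1 and Matplotlib 3.10.9. Eligible sequence is every base that meets the same conditions on position as a summit. For each replicate the 6485 best-ranked peaks were used, as many as the IDR list holds, and summits within 100 bp were counted as matched. Windows reached 100 bp on each side of a summit, and flanks were windows centred 1000 bp away on both sides. Differences within a replicate were tested by an exact sign-flip permutation test, two-sided. The labels do not say how far the biological replicates were raised apart, so p-values concern these libraries only, and the 3 lists share a control alignment. A p of 0.25 in this permutation test means that the 3 differences had the same sign, whatever their size. Regions are not replicates of each other. The matching, classes, densities and motif search were tested on simulated data.

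The choice of regions, of 14 gene lists, of 21 motifs and of the genes to name was made with earlier results of these data known. Named were the hosts of the 20 strongest regions, the 10 genes with the most regions (16 with ties), up to 3 hosts per list with the strongest region, and the peaks next to each limit. Of 352 listed symbols, 338 were current, 9 were found through an older name and 5 were not found. The 8-base words, the occurrence of CACTGAGA and its genes, transposable elements and the spacing of summits were looked at after the data had been seen. A gene list, a gene with 8 regions and a sequence are not reported here.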

Additional observations from a re-analysis of the deposited data

How the results depend on the processing

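Densities, first-intron shares, median ranks, the GC dip against the flanks and the difference at promoters kept their direction under every alternative tried. The density difference ranged from 14.1 to 37.9 peaks per Mb against longer introns and from 18.8 to 53.3 against sequence between genes, and the GC difference from the flanks from -7.00 to -3.82 points. Of the IDR peaks, the 1000 strongest held 198 regions and the 3242 strongest 810. With those 3242 peaks the genes with a region numbered 2 on the wing list (7 with all peaks) and 4 on the Wnt and Hedgehog list (7). They numbered 2 on the JAK-STAT and JNK list (4) and 2 on the muscle list (4). Other lists moved less, with 6 on the EGFR and Ras list (6), 7 on the Hippo list (7) and 8 on the Dpp list (9). The chromatin list had 8 (8), the ecdysone list 8 (9), the Notch list 6 (7), the cell death list 2 (2) and the neuronal list 2 (3). The share of all eligible genes at this cut is not given here. Small differences in the share matched in a replicate changed sign. Against all other peaks it was -0.373 points with summits within 50 bp, -2.76 with the 3000 best-ranked peaks, -0.183 among the 3242 strongest peaks and -0.0881 with a span limit of 60 kb. Among the 3242 strongest peaks it was -0.562 against longer introns and -0.123 against peaks between genes. Against peaks near start sites, where it was -1.28 points, it was -9.00 with the 3000 best-ranked peaks, 0.518 with the 10000 best-ranked peaks and 1.52 within 5 equal classes of signal value. GC content against peaks between genes was -0.263 points with 150 bp each side, and leaving out each replicate gave -0.0605 to 0.0433. Against peaks near start sites it was 0.2996 with 150 bp each side and 0.173 with the 3000 best-ranked peaks, and leaving out each replicate gave -0.199 to 0.0636. GAGAG was 1.83 points above the flanks with 150 bp each side, the Zelda word CAGGTAG 0.117 with 150 bp, with -0.0649 to 0.0796 on leaving out each replicate, and AGGTCA 0.0716 with 50 bp each side. The cause of these changes was not tested. The comparison within classes of signal value, the counting of overlapping peaks once, the weighting by distance and leaving out transposable elements were chosen after seeing the data. The study has 1 group, so replicate numbers pair no samples between groups, and differences between classes of peaks were paired by replicate throughout. Depth is unknown, so a region unmatched in a replicate was not shown to be unbound there, and 3 replicates limit every p to 0.25.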
